A study of Rattus norvegicus with 2 samples.

Results

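The Ras GTPases and the mitogen-activated protein (MAP) kinase cascade were read as 48 listed genes, from the Ras proteins through 4 tiers of kinases to the kinases that MAP kinases phosphorylate. Of these, 43 were named on the array, among 15564 named genes in all, and Ksr1, Map3k14, Mapk7, Mapk11 and Rps6ka5 had no target that could be named here. AR42J is an established line of rat exocrine pancreas tumour cells. The treatment, taurolithocholic acid 3-sulfate (TLC-S), is a bile salt that is applied to pancreatic cells to mimic biliary pancreatitis. The control group was untreated AR42J cells and the treated group was AR42J cells given 200 µM TLC-S for 20 min, both grown in Ham's F12K medium with serum. Each group was 1 array, so every value below describes 2 arrays and no test between the groups was possible.

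Ras proteins are membrane-bound switches that are active when they carry GTP, and active Ras recruits Raf kinases. A MAP kinase module is a relay of kinases in which a MAP3K phosphorylates a MAP2K, which in turn phosphorylates both the threonine and the tyrosine in the activation loop of a MAP kinase. The ERK branch answers mainly to growth factors and hormones, while the JNK and p38 branches answer to stress and cytokines, and all of them act through changes in phosphorylation that a measurement of RNA does not see. In the exocrine pancreas these branches are known to respond to secretagogues and to the stress of acute pancreatitis.

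Values are RMA intensities on a linear scale, and where several targets (probe sets) read 1 gene, the brightest by mean log2 intensity stands for it. All member targets held 5 probes. Random probes read 44.7 on the control array and 40.5 on the TLC-S array, and an intensity of 100 on both arrays was required before a ratio was counted. This held for 39 of the 43 named members, and for 10164 of all named genes. Map2k6 reached 100 on the TLC-S array alone, and Mos, Mapk10 and Mapk13 were under 100 on both. The median log2 ratio (TLC-S over control) of all genes at this limit was 0.25 with an SD of 0.70 across genes, and subtracting a loess curve of ratio on signal brought that median to -0.00. As a gauge of the spread between targets, the log2 ratios of targets of the same gene were set against their gene's mean. Their pooled SD was 0.42 over 589 genes, which gives an SD of 0.60 for the difference between 2 targets. The SDs of 0.42 and 0.60 come from the same 2 arrays and hold no spread between cultures. A gap between genes given in such SDs is a description and was not tested. In RNA from a whole culture, fewer cells that express a gene and less of its RNA per cell cannot be told apart.

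The members leaned towards higher values on the TLC-S array, as all genes at the limit did. Their log2 ratio was above 0 for 31 of 39, beside 66.3% of all genes at the limit, and below 0 for 8. Their median log2 ratio was 0.34, beside 0.25 for all genes, and 21 of the 39 lay above the median of all genes. After loess the members' median was 0.04 and 21 lay above 0 and 18 below. At least 2-fold higher on the TLC-S array were 5 of 39 members (12.8%), beside 10.0% of all genes, and these were Mras, Rps6ka2, Mapk8, Mapk14 and Map2k4. None of the 39 was at least 2-fold lower, beside 4.38% of all genes. At 1.5-fold, 12 members were higher, beside 27.8% of all genes, and 2 were lower, beside 9.62%. After loess 3 members stayed past 2-fold higher (Mras, Rps6ka2 and Mapk8), beside 4.58% of all genes, and again 0 were 2-fold lower, beside 6.92%. The shares at least 2-fold and 1.5-fold higher as deposited were near those of all genes. More members lay above 0, and fewer were lower, than the shares of all genes would give. These counts are small and the gaps were not tested. The list as a group is therefore not set apart by its counts, and the account that follows is of its single genes.

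**Figure D1:**
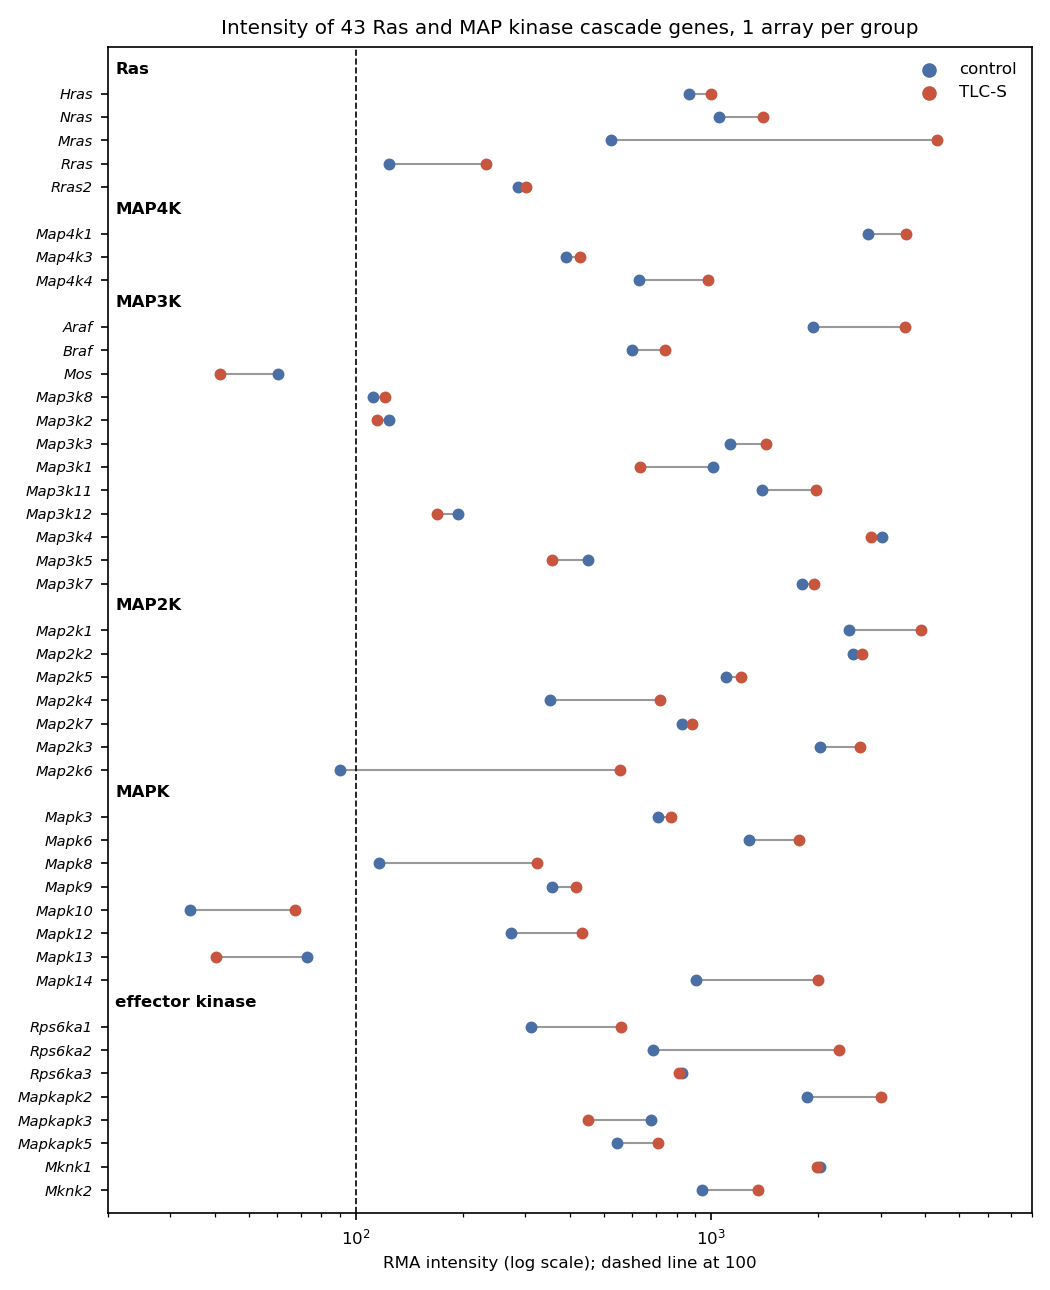
RMA intensity (log axis) of the 43 named members on the control array (blue) and the TLC-S array (red), 1 array per group, ordered by tier, with a dashed line at 100. The long bars to the right belong to Mras, Map2k6, Mapk8 and Rps6ka2, and among genes at 100 or more on both arrays Map3k1 and Mapkapk3 have the longest bars to the left.

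The promoters of 41 members were present in the RefSeq promoter table of assembly GRCr8 as 42 windows, each from 250 bases before to 50 bases after a gene start, with 2 windows for Mras. Members' windows were GC rich, with a median GC content of 65.3%, beside 60.7% for the 7628 windows of genes at 100 or more on both arrays and 51.7% for all 33469 windows. A GC box (GGGCGG, read on both strands) was found in 36 of the 42 windows (85.7%), beside 62.2% of windows of genes at the limit and 33.1% of all windows. A short CRE (TGACG, both strands, which also lies inside the full CRE) was found in 21 windows (50%), beside 33.6% and 21.2%. The full CRE (TGACGTCA) was in 2 windows, of Braf and Mapk10 (4.76%), beside 3.20% and 1.83%. A CCAAT box (CCAAT, both strands) was in 17 windows (40.5%), beside 38.7% and 37.5%, and an AP-1 site (TGANTCA) in 2, of Map2k4 and Map3k8 (4.76%), beside 4.55% and 7.33%. An E-box (CACGTG) was in 3 windows (7.14%), beside 9.96% and 6.42%, and an ETS site (CCGGAAG, both strands) in 4 (9.52%), beside 20.3% and 8.75%. A TATA box (TATAAA, both strands) was in 0 of the 42, beside 7.04% and 14.2%. These are matches of letters and no binding was measured.

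The 250 bases before the gene start are shown for the 3 members that stayed past 2-fold after loess and for Map2k6, whose control value was under 100, with matches to any of the motifs above in capitals. They lie at chr8:108876148-108876397 on the minus strand (Mras, the more upstream of its 2 starts), chr1:55318561-55318810 on the plus strand (Rps6ka2), chr16:8728226-8728475 on the minus strand (Mapk8) and chr10:95872497-95872746 on the plus strand (Map2k6), all in GRCr8 and printed 5′ to 3′ along the gene.
Mras: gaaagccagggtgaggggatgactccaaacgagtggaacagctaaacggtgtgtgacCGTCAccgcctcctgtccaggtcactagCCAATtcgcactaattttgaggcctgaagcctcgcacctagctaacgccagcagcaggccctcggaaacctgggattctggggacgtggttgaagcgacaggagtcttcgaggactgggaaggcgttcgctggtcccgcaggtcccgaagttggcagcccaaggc
Rps6ka2: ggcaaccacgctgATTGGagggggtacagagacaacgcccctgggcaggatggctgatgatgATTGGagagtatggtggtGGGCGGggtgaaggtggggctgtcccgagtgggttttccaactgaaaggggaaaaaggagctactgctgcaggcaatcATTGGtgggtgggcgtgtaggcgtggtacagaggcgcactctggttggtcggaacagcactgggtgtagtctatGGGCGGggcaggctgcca
Mapk8: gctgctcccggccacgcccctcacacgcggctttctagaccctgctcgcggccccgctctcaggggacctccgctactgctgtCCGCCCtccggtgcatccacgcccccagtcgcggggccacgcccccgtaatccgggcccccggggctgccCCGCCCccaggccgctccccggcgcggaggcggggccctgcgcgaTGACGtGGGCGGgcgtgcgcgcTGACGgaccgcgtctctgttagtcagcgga
Map2k6: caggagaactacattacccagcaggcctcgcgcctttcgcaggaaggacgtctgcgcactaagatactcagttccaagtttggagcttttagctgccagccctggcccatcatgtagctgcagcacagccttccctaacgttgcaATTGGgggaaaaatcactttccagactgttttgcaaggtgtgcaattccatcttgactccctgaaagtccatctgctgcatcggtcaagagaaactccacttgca
The matches differed among the 4 regions. Rps6ka2 carried 3 CCAAT boxes on the other strand and 2 GC boxes, Mapk8 carried 3 GC boxes and 2 short CREs, and Map2k6 carried a single CCAAT box, at position -105 from its start. The stretch of Mras printed here held a short CRE at -193 and a CCAAT box at -165. Past that stretch, the window of the same start held a GC box at 36. The overlapping window of the other Mras start, not printed, held this same GC box, at -200 from that start. It also held a second GC box at -1 and a short CRE at 41. The windows ranged widely in composition, from 50.3% GC for Map2k6 to 76.3% for Mapk8.

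Among the Ras genes the difference between the arrays was concentrated in Mras, the muscle-type Ras that forms a complex with Shoc2 and a phosphatase to release Raf from inhibition. Mras read 521 on the control array and 4324 on the TLC-S array, 8.30-fold higher, with a log2 ratio of 3.05 and of 2.76 after loess. It ranked 5 from the highest of 10164 genes, and it lay above 99.9% of the 1403 genes of like signal. The classical Ras genes gave smaller ratios. Nras read 1049 and 1402 (log2 ratio 0.42, 0.12 after loess). Hras read 867 and 997, a log2 ratio of 0.20 that turned to -0.11 after loess, while its other target read 583 and 1067 with a log2 ratio of 0.87. The targets of Hras thus differed by 0.67 log2 units, more than the SD of 0.60 for such a difference. Of the R-Ras proteins, which act on integrin adhesion as well as on Raf and PI3 kinase, Rras read 124 and 232 (1.87-fold higher) from a control value close to the limit. Rras2 read 286 and 302, a log2 ratio of 0.07 that turned to -0.23 after loess. The log2 ratio of Mras exceeded that of Nras by 2.64, which is 4.42 times the SD of a difference between targets of a gene.

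The MAP4K genes encode Ste20-type kinases that act above the MAP3Ks, mostly towards JNK. Map4k4, which couples TNF receptors and adhesion to JNK, read 628 and 979 (1.56-fold higher), and its other target read 420.3 and 785 with a log2 ratio of 0.90. Map4k3, a kinase that also senses amino acids, read 391 and 427, a log2 ratio of 0.13 that turned to -0.19 after loess. Map4k1, known as haematopoietic progenitor kinase for its place in blood cells, read 2764 and 3543 (log2 ratio 0.36, 0.13 after loess). Its presence sat beside a marker profile that did not match the labelled exocrine cell. Of 24 named acinar markers, 17 were under 100 on both arrays and 4 reached 100 on both, while 16 of 17 named leukocyte markers reached 100 on both, and the median intensities of all 17 were 927 and 1177. The brightest leukocyte markers were Cd37, at 10929 and 7840.2, and Laptm5, at 3442 and 3954. Of 10 listed B lymphocyte markers 4 were named, and all 4 also reached the limit on both arrays. The brightest were Cd79b (1263 and 1079.5) and Btk (481 and 699), while Blk (120 and 126) and Ebf1 (120 and 102) were close to the limit. The acinar genes Prss3, at 15742 and 2183, and Prss2, at 7536 and 856, were the brightest of their list and were 7.21-fold and 8.81-fold lower on the TLC-S array. The other acinar markers at the limit on both arrays were Prss1 (5337 and 603) and Bhlha15 (1227 and 1056). Of 11 named epithelial markers 5 reached the limit on both arrays, the brightest being Cdh1 (5018 and 6755) and Ocln (479.6 and 330.3), and of 10 fibroblast and stellate markers only Col5a1 did (170 and 111). The part of these markers in the members' values was not tested.

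The MAP3K tier was the most evenly divided, with 6 of its 11 measured genes above 0 and 5 below, beside 66.3% of all genes above 0. Its median log2 ratio of 0.11 turned to -0.17 after loess. In the ERK branch, Araf, a Raf kinase that binds active Ras, read 1933 and 3508 (1.81-fold higher, log2 ratio 0.61 after loess), and its other target read 1551 and 2407 (1.55-fold). Braf, the Raf with the highest basal activity, read 598 and 740.3, a log2 ratio of 0.31 that became -0.01 after loess. The log2 ratios of Araf and Braf differed by 0.55, less than 1 SD of a difference between targets. Map3k8, the kinase also known as Tpl2 that carries Toll-like receptor signals to ERK, read 112 and 121, both close to the limit. Mos, a germ cell MAP3K, read 60.2 and 41.4, near the random probes.

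Map3k1 was the member with the lowest log2 ratio. This kinase, also called MEKK1, binds ubiquitin chains and activates JNK, and it read 1014 and 632, 1.60-fold lower on the TLC-S array with a log2 ratio of -0.68 and of -0.998 after loess. It lay above only 6.22% of the 1913 genes of like signal. Map3k5, known as ASK1 and released by oxidation of thioredoxin, read 451 and 357 (log2 ratio -0.34), but its other target read 291 and 319.8 with a log2 ratio of 0.14, so its targets differed in direction. Map3k4, which GADD45 proteins activate, read 3021 and 2819 (-0.10), with -0.06 for its other target. Map3k12, a JNK activator best known from injured axons, read 193 and 169 (-0.19), and Map3k2, a regulator of the ERK5 branch, read 124 and 115 (-0.11).

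The remaining MAP3Ks were above 0. Map3k11, a mixed lineage kinase that activates JNK, read 1387 and 1969.8 (log2 ratio 0.51), and its other target gave 0.47. Map3k3, a further kinase of the ERK5 branch, read 1127 and 1424 (0.34, 0.04 after loess). Map3k7, the TAK1 kinase downstream of TGF-beta, interleukin-1 and TNF receptors, read 1807 and 1952, a log2 ratio of 0.11 that turned to -0.17 after loess. The 3 kinases shared by JNK and p38 (Map3k4, Map3k5 and Map3k7) had a median of -0.10, and -0.34 after loess, which turned to 0.11 with the dimmest target of each gene.

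All 6 MAP2K genes at the limit on both arrays were above 0, beside 66.3% of all genes. Their median of 0.26 became -0.02 after loess. The ERK, JNK and p38 branches each have a pair of related kinases at this tier. In the ERK branch, Map2k1 (MEK1) read 2445 and 3908, 1.60-fold higher (log2 ratio 0.68, 0.44 after loess). Map2k2 (MEK2) read 2507 and 2663, a log2 ratio of 0.09 that turned to -0.16 after loess. In the JNK branch, Map2k4 (MKK4, which phosphorylates JNK and can also phosphorylate p38) read 352 and 716, 2.04-fold higher. Its log2 ratio of 1.03 became 0.70 after loess. Map2k7 (MKK7, specific to JNK) read 826 and 881, a log2 ratio of 0.09 that turned to -0.22 after loess. In the p38 branch, Map2k6 (MKK6) read 90.3 and 553, at least 5.53-fold higher against the limit of 100, and Map2k3 (MKK3) read 2027 and 2628 (1.30-fold). Map2k5, the activator of ERK5, read 1101 and 1216, a log2 ratio of 0.14 that turned to -0.16 after loess, and its other target gave 0.49. The gaps in log2 ratio were 0.59 between Map2k1 and Map2k2 and 0.93 between Map2k4 and Map2k7, or 0.99 and 1.57 SDs of a difference between targets of a gene. Neither gap reached 2 such SDs, which is no cut-off, and neither was tested.

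**Figure D2:**
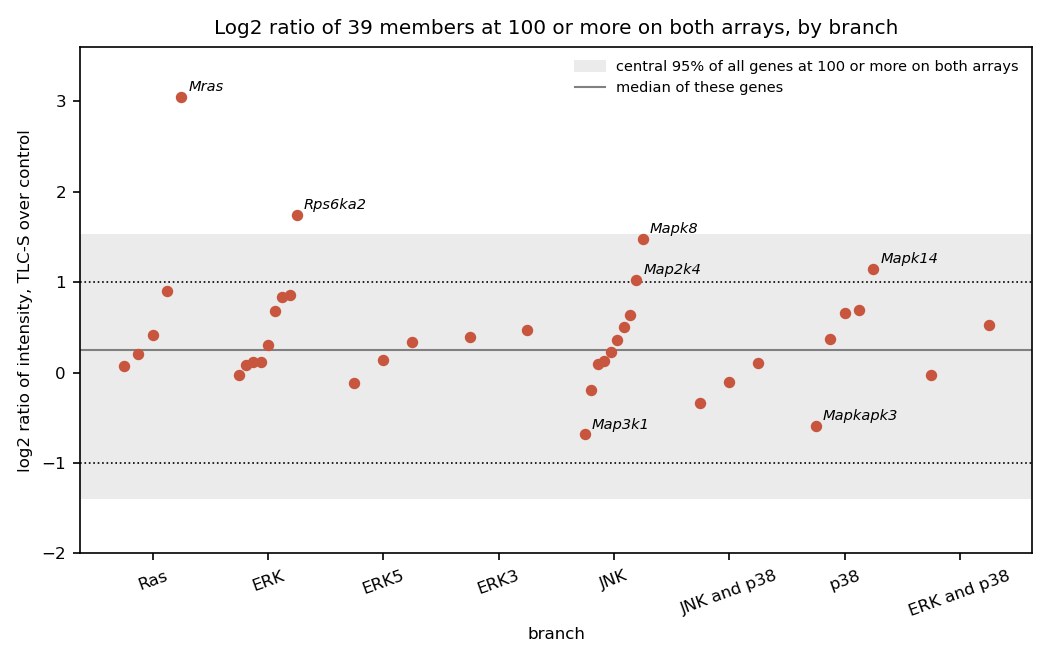
Log2 ratio (TLC-S over control) of the 39 members at 100 or more on both arrays, grouped by branch, with dotted lines at 2-fold, a grey line at the median of all genes at the limit (0.25) and a grey band for the central 95% of those genes (-1.38 to 1.52). Only Mras and Rps6ka2 lie outside the band; after loess 10 of the points above 0 fall below 0.

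The MAP kinase tier had a median of 0.56 over 6 genes (0.26 after loess), with all 6 above 0, beside 66.3% of all genes. Its highest ratios were those of Mapk8 and Mapk14. Mapk8 encodes JNK1, the JNK that phosphorylates c-Jun in most tissues, and read 116 and 324, 2.79-fold higher (log2 ratio 1.48, 1.24 after loess). Its other target read 112 and 226, 2.02-fold higher. Both control values of Mapk8 were close to the limit of 100, and with a limit of 200 it was no longer counted. Its relatives gave lower or uncounted ratios. Mapk9 (JNK2) read 357 and 417, a log2 ratio of 0.23 that turned to -0.09 after loess, and Mapk10 (JNK3, mostly neuronal) read 34.0 and 67.3, under the limit on both arrays. The log2 ratio of Mapk8 exceeded that of Mapk9 by 1.25, or 2.10 SDs of a difference between targets.

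Mapk14, the ubiquitous p38 alpha, read 905 and 2004, 2.21-fold higher with a log2 ratio of 1.15, which was 0.85 after loess. It lay above 93.9% of the 1500 genes of like signal. Mapk12, p38 gamma, a form prominent in muscle, read 273 and 432 (1.58-fold higher). Mapk13, p38 delta, which lies next to Mapk14 among the protein-coding genes of chromosome 20, read 72.6 and 40.4, under the limit on both arrays. The gap between Mapk14 and Mapk12 was 0.49 log2 units, less than 1 SD of a difference between targets. In the ERK branch, Mapk3 (ERK1) read 710.0 and 771, a log2 ratio of 0.12 that turned to -0.20 after loess. Mapk6 (ERK3, an atypical MAP kinase with a short-lived protein) read 1278 and 1767 (0.47, 0.18 after loess).

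Of the kinases that MAP kinases activate, the RSK genes differed most among themselves. RSKs are phosphorylated by ERK and act on ribosomal protein S6, transcription factors and cell cycle regulators. Rps6ka2 (RSK3) read 684 and 2296, 3.36-fold higher (log2 ratio 1.75, 1.45 after loess), above 98.7% of the 1542 genes of like signal. Rps6ka1 (RSK1) read 311 and 557 (1.79-fold higher), and Rps6ka3 (RSK2) read 829 and 813 (-0.03). The gap between Rps6ka2 and Rps6ka3 was 1.78 log2 units, 2.98 SDs of a difference between targets, and that between Rps6ka2 and Rps6ka1 was 0.91, or 1.52 SDs.

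The p38-activated kinases Mapkapk2 and Mapkapk3, close relatives that phosphorylate Hsp27 and tristetraprolin, lay on opposite sides of 0. Mapkapk2 read 1855 and 2998, 1.62-fold higher, and Mapkapk3 read 676 and 450.1, 1.502-fold lower. Their log2 ratios differed by 1.28, or 2.15 SDs of a difference between targets, and they kept opposite signs after loess (0.43 and -0.91). Mapkapk5, a partner of ERK3, read 542 and 710.0 (0.39, 0.07 after loess). The Mnk kinases phosphorylate the cap-binding factor eIF4E on scaffolds of initiation factors. Mknk1 read 2025 and 1981 (-0.03) and Mknk2 read 941 and 1355 (0.53, 0.22 after loess), a gap of 0.56 log2 units and less than 1 SD of a difference between targets.

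By branch, the median log2 ratio was 0.31 for the 9 measured ERK genes, 0.29 for the 10 JNK genes and 0.66 for the 5 p38 genes. After loess these were 0.03, 0.02 and 0.35. Each branch spanned a range wider than the gaps between branches, from -0.03 to 1.75 for ERK, from -0.68 to 1.48 for JNK and from -0.59 to 1.15 for p38. The 3 genes of the ERK5 branch had a median of 0.14, which turned to -0.16 after loess. By tier the medians were 0.42 for Ras (0.87 with the dimmest target of each gene), 0.36 for MAP4K and 0.46 for the effector kinases, and after loess 0.12, 0.13 and 0.15.

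**Figure D3:**
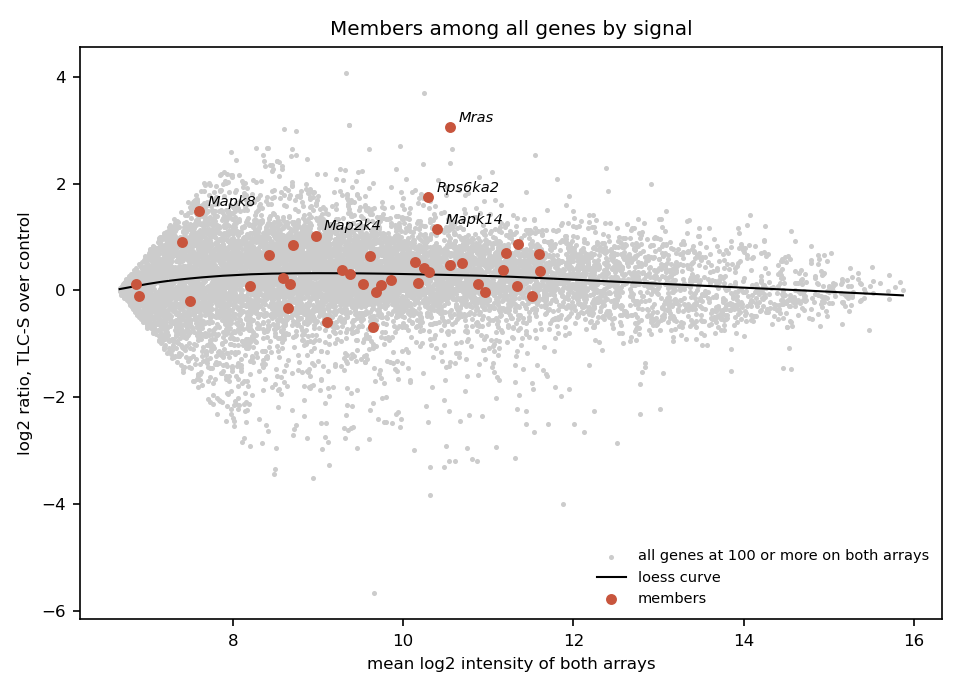
Log2 ratio (TLC-S over control) against mean log2 intensity of both arrays for all 10164 genes at 100 or more on both arrays (grey) and the 39 members (red), with the loess curve in black. Members lie in the lower and middle part of the range of signal. They reach 3021 on the control and 4324 on the TLC-S array, where all genes reach 59752 and 61510. Mras, Rps6ka2, Mapk14, Map2k4 and Mapk8 stand above the curve.

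Genes around the cascade were read from 7 further lists, all counted over genes at 100 on both arrays and to be set beside the 10.0% and 4.38% of all genes past 2-fold. The MAP kinase phosphatases, which remove the activating phosphates from ERK, JNK and p38, had the highest list median, 0.68 over 9 genes (0.36 after loess). Their log2 ratios ran from -0.51 to 1.04, with 7 above 0, beside 66.3% of all genes, and 1 at least 2-fold higher. No phosphatase of the list read above 321 on the control array. Dusp16, which favours JNK and p38, read 139 and 286 (2.06-fold), and Dusp14 read 131 and 239 (1.83-fold). Dusp1, an immediate early phosphatase of p38 and JNK, read 49.6 and 203, at least 2.03-fold higher against the limit, and Dusp4, a nuclear phosphatase, read 76.4 and 142, at least 1.42-fold. Dusp2 (254 and 178) and Dusp6 (199 and 168), the cytoplasmic ERK phosphatase, were lower on the TLC-S array. Among the nuclear targets of MAP kinases 3 of 21 were at least 2-fold higher and 1 lower, with a median of 0.39 (0.15 after loess). Jun, the AP-1 subunit that JNK phosphorylates, read 311 and 1942 (6.24-fold), Zfp36, the mRNA-destabilising tristetraprolin, read 241 and 901 (3.75-fold), and Atf3, a stress-induced factor, read 121 and 313 (2.59-fold). Ddit3 (CHOP), a p38 substrate of the unfolded protein response, read 5329 and 1908, 2.79-fold lower. Ets1 read 67.9 and 575, at least 5.75-fold higher against the limit, and was not counted. Another 6 of the 28 named nuclear targets were under 100 on both arrays, so their ratios were not counted either. They were Fos (40.9 and 33.6), Fosl1, Egr1 (74.5 and 94.0), Egr2, Egr3 and Hspb1.

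**Figure D4:**
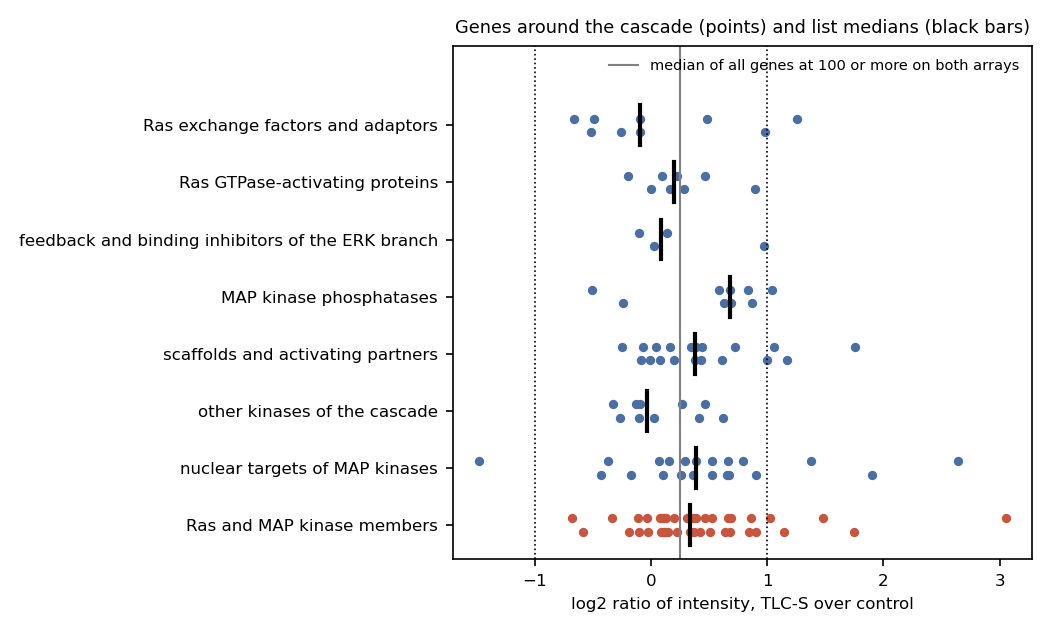
Log2 ratio (TLC-S over control) of the genes of 7 lists around the cascade (blue points) and of the 39 members (red points), all at 100 or more on both arrays, with the median of each list as a black bar, dotted lines at 2-fold and a grey line at the median of all genes (0.25). The phosphatases have the highest median (0.68), and the adaptors and the other kinases of the cascade the lowest (-0.10 and -0.03).

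Upstream of Ras, the list of adaptors and of exchange factors, which load Ras with GTP, had a median of -0.10 over 9 genes (-0.29 after loess). In this list 1 gene was at least 2-fold higher. That gene was Rasgrp3, a diacylglycerol-sensitive exchange factor, at 1475 and 3519 (2.39-fold), and Crkl, an adaptor, read 428 and 846 (1.98-fold). The Ras GTPase-activating proteins, which switch Ras off, had 0 of 8 past 2-fold in either direction and a median of 0.20 that turned to -0.09 after loess. Their largest ratios were those of Rasal1 (149 and 279, 1.86-fold) and Rasa3 (214 and 294, 1.38-fold). The inhibitors of the ERK branch also had 0 of 4 past 2-fold and a median of 0.08, or -0.09 after loess, with Spred3 at 123 and 242 (1.96-fold) and Sh2b3, an adaptor that restrains cytokine receptors, at 321 and 353 (1.10-fold).

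Of the scaffolds and activating partners 3 of 19 were at least 2-fold higher and 0 lower, with a median of 0.38 (0.12 after loess). Traf6, a ubiquitin ligase that activates TAK1, read 241 and 813 (3.37-fold), Cdc37, the kinase-specific partner of Hsp90, read 3067 and 6921 (2.26-fold), and Arrb2, a beta-arrestin that scaffolds JNK and ERK modules, read 1748 and 3647 (2.09-fold). Other kinases of the cascade had 0 of 10 past 2-fold and a median of -0.03 (-0.29 after loess), led by Map3k20 (162 and 249, 1.54-fold) and Map4k2 (708 and 979, 1.38-fold).

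The authors' deposited table of genes higher in TLC-S holds the same 5 members, with a fold of 8.30 for Mras, 3.36 for Rps6ka2, 2.79 and 2.02 for the targets of Mapk8, 2.21 for Mapk14 and 2.04 for Map2k4. The authors' deposited table of lower genes holds 0 members. Both tables rest on the same 2 arrays and the same intensities, so their match with the counts above is no separate evidence. In the authors' deposited table of pathways, 8 of 38 pathways list at least 1 member, with Mapk8 in 7, Map2k4 and Mapk14 in 3 each, Rps6ka2 in 2 and Mras in none. The one with the smallest p-value in the authors' deposited table among those with more than 1 member is progesterone-mediated oocyte maturation, ranked 3 with p = 8.07e-07 and 18 genes of 86, which lists Mapk14, Mapk8 and Rps6ka2 among cell cycle genes such as Plk1 and Cdk1. The Chagas disease pathway, ranked 8, lists Map2k4, Mapk14 and Mapk8 with Jun and Traf6. Its Fisher p-value in the authors' deposited table is 0.000421, with a false discovery rate of 0.00884. The Toll-like receptor pathway, ranked 20, lists the same 3 members with Jun and Traf6. Its Fisher p-value in the authors' deposited table is 0.0137, with a false discovery rate of 0.115. These p-values treat genes as independent and rest on the same 2 arrays, so they hold no measure of the spread between cultures.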

How the data were processed

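Cy3-labelled cDNA of AR42J cells was read on NimbleGen one-colour arrays, 1 per group, per the labels. Each deposited value is an RMA intensity of a target on a linear scale. RMA is named without a version in the submitters' processing notes. Neither scanner settings nor the background step is given in the sources used here. For the members, the authors' tables of higher and lower genes give the fold as a ratio, and their pathway and process tables give a p-value per term, per the file headers. Of 26419 targets, 9747 were named by RefSeq accession, 4950 by gene ID and 1644 by the symbol or synonym in the authors' table, using RefSeq's gene table of GRCr8 for names. Another 10078 stayed unnamed, 9767 of them predicted records and only 445 at 100 or more on both arrays, so whether a member with a predicted record could be named depended in part on its level. Members rested on 27 curated and 16 predicted records, and 8 members had several targets. Log2 was taken here and no p-value was computed, since 1 array per group leaves no spread. Loess (span 0.3, 3 robust iterations) was fitted on all targets and tested on simulated data. Genes of like signal lay within 0.5 log2 units of mean intensity. Motifs were searched in RefSeq promoter windows of GRCr8, a build used only for these windows and names.

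Members and lists were chosen with earlier results of these data known. Every member is named, as are the 2 genes with the largest absolute log2 ratio in each list (where both arrays read 100 or more) and the 2 brightest of each marker list. Dusp1, Dusp2, Dusp4, Dusp6, Atf3, Ddit3, Arrb2, Prss1, Bhlha15, Blk and Ebf1 were added after their values were seen. So were Ets1, Fos, Fosl1, Egr1, Egr2, Egr3 and Hspb1. A further list is not reported here. The 4 columns that repeat array values in the authors' tables of higher and lower genes were not mapped or used, and 0 columns belonged to an unknown sample. The values were recomputed from the series values and from the authors' table of all targets, and with median centring, loess, quantile normalization, limits of 200, of 100 on either array and none, an offset of 50, folds of 1.5 and 3, the mean or the dimmest target, and curated records alone. The series values were equal to the array values used here (largest difference 0), so that alternative could not move a result. Versions were matplotlib 3.10.9, statsmodels 0.14.6, scipy 1.17.1, pandas 2.3.3 and numpy 2.4.6, under Python 3.11.15.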

Additional observations from a re-analysis of the deposited data

How the results depend on the processing

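No paired analysis was possible because there was just 1 array in either group. The count of members at least 2-fold higher was 5 and became 3 with loess, 3 with quantile normalization and 3 of 24 with curated records alone, 12 at 1.5-fold and 2 at 3-fold, and stayed between 4 and 6 under the other alternatives. Map2k4 fell under 2-fold with median centring, loess, quantile normalization and an offset of 50, and Mapk14 with loess and quantile normalization. Of all genes, 10.0% were at least 2-fold higher as reported and 4.58% with loess, and 27.8% were at least 1.5-fold higher. The share of all genes is not given for the other settings, so their counts have no background beside them. The count of members at least 2-fold lower was 0, beside 4.38% of all genes, and became 2 at 1.5-fold, beside 9.62%. The members' median log2 ratio of 0.34 became 0.040 with loess and 0.10 with quantile normalization, and the median of the other kinases of the cascade became -0.29 with loess. The median of all genes moved with these scalings too, from 0.25 to -0.00 and 0.04. With the dimmest target in place of the brightest, Hras read 0.87, Map3k5 0.14 and Mapk8 1.01, and the median of the Ras genes, 0.42 as reported, was 0.87. Mras and Rps6ka2 passed 2-fold under each alternative that counted them except that Rps6ka2 was not counted with curated records alone. With 1 array per group the spread between cultures is unknown, and control values close to 100, as for Mapk8, Rras and Map3k8, limit what their ratios can show.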
